A study of Mus musculus with 93 samples.

Results

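Among the spheroid libraries of RFP+ cells, the 13 wells with the most Aldh1a2 were compared with the 13 wells with the least, to ask whether second heart field cells in the culture separate into anterior and posterior kinds. The wells were chosen by Aldh1a2 CPM (the gene's counts scaled to a common library total). They were drawn from 39 of the 46 RFP+ spheroid wells and from 93 libraries in the whole series. RFP marks the progeny of Tbx1-expressing cells. The embryonic stem cell line carries Hcn4-GFP, Tbx1-Cre and the Ai9 reporter, in which Cre permanently switches on RFP, so a cell that has stopped expressing Tbx1 stays red. High and low wells share the line, the differentiation to day 5.5, the sort gate and the 10 cells per well, and no label sets them apart other than the well position. For context, the series also holds 38 spheroid wells of GFP+ cells from the same line, which express the Hcn4 reporter, and 4 RFP+ and 5 GFP+ libraries from Hcn4-GFP; Tbx1-Cre; Ai9 embryos. The sample titles place the embryos at embryonic day 8.5, and the protocol names an earlier stage. Wells are not assigned to separate differentiations, so p-values measure the spread between wells, which may be technical.

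Retinoic acid is made from retinaldehyde by Aldh1a2, and in the early embryo it comes from posterior and lateral mesoderm. The second heart field is a pool of progenitors behind the first cardiac crescent. Its anterior portion, marked by Tbx1, Fgf8 and Fgf10, builds the outflow tract and right ventricle, and its posterior portion, marked by Hoxb1, Osr1 and Tbx5, builds the venous pole. Retinoic acid sets the border between them and induces its own set of genes, including the Hox genes of the first paralog groups, the receptor Rarb and the degrading enzyme Cyp26a1. Foxc2 is a forkhead factor of paraxial and pharyngeal mesoderm, and Meox1 is a homeobox factor of somites.

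Aldh1a2 (chromosome 9, 71215789 to 71296243, GRCm38) was read in every ranked well. In the 13 high wells it ran from 89.8 CPM to 228 CPM, with a median of 117 CPM. In the 13 low wells it ran from 7.20 to 46.8 CPM, with a median of 38.2 CPM, and the 13 wells between them held 50.3 to 85.6 CPM. These values fixed the groups and are given without a test. The ranks formed a slope without a step at either border. The last well counted as high (G3) had 89.8 CPM and the next (A2) 85.6 CPM, while the first counted as low (B2) had 46.8 CPM and the one above it (E1) 50.3 CPM. High wells held 57 to 268 Aldh1a2 reads and low wells 10 to 110.

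**Figure D1:**
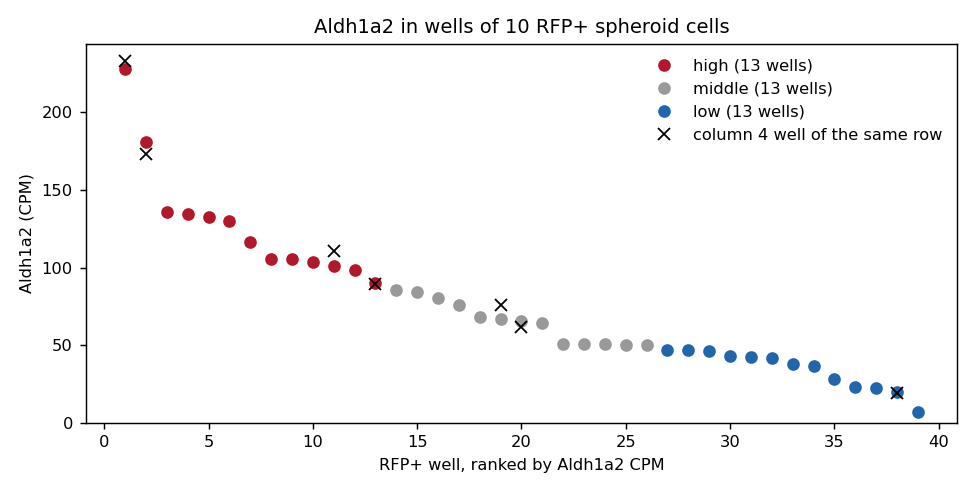
Aldh1a2 level in CPM (vertical axis) for the 39 RFP+ wells, ranked from most to least (horizontal axis) and coloured as high, middle or low; crosses give the column 4 well of the same plate row, placed at the rank of its column 3 well. The levels fall from 228 to 7.20 CPM with no gap at either border, and each cross lies close to its partner.

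The 7 wells of plate column 4 were left out because each is nearly a copy of the column 3 well of its row. Over all genes, log2(CPM + 1) correlated at r = 0.976 to 0.994 within these 7 pairs and at 0.945 to 0.967 within 76 other pairs of wells of 1 row. Aldh1a2 differed by 0.01 to 0.18 on the log2 scale within the 7 pairs, against a median of 0.81 in the 76 other pairs. Putting the column 4 wells in place of their partners returned all 13 high and all 13 low positions. Aldh1a2 was also among the genes that varied most for their level. Its biological coefficient of variation over the 39 wells was 0.50, where genes of its abundance had 0.21, and 99.8% of 7987 genes had a lower ratio of dispersion to trend.

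High wells had total counts of 540597 to 2329470 (median 1313400) and low wells 1127500 to 2613140 (median 1535950). The difference of means gave p = 0.0907 in a two-sided permutation test (adjusted p = 0.272 over 3 measures). Genes detected averaged 12763 ± 575 in high wells and 12989 ± 337 in low wells (SD, n = 13 each, permutation p = 0.238). The share of ribosomal protein gene counts was 6.82% ± 0.51 against 6.71% ± 0.26 (SD, n = 13 each, permutation p = 0.481). On the plate, column 3 held 5 high wells and 1 low well, column 2 held 1 high and 5 low, row F held 2 high and 0 low, and row E 0 high and 2 low. The part of plate position in any difference between the groups was not tested apart from the row and column terms given in the closing section.

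No other gene passed the test between the groups. Of 9078 genes, edgeR's quasi-likelihood test called 0 at an adjusted p under 0.1, which is 0% of the genes, and the smallest adjusted p was 0.250. At an unadjusted p under 0.05 there were 449 genes, which is 4.95% of those tested, 228 of them higher and 221 lower in high wells. The 95% interval of a gene's log2 fold change, without adjustment over the genes tested, reached a median of 0.33 to either side. A call needed a smaller p than such an interval does. For the typical gene, differences of that size and somewhat larger ones would therefore not have been called. In 0 of the 9078 genes did the CPM of the 2 groups fail to overlap. DESeq2 on the same wells called 1 gene, Ackr3, among 19343 with an adjusted p, and gave 687 genes with an unadjusted p under 0.05. Aldh1a2, which chose the wells, was among the genes of the DESeq2 adjustment and was removed only afterwards. The DESeq2 call of Ackr3 rests on its presence there.

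**Figure D2:**
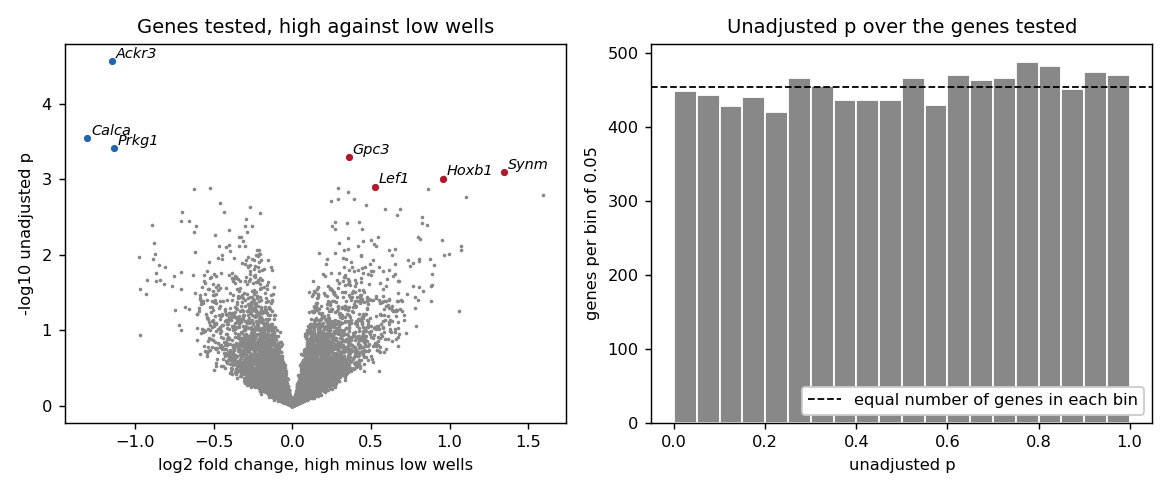
Left, log2 fold change (high minus low wells, horizontal axis) against −log10 of the unadjusted p (vertical axis) for the 9078 genes tested, with 7 of the 10 genes named for their small p labelled. Right, number of genes in each bin of unadjusted p; the bins are nearly level, with 449 genes in the first, and the dashed line marks an equal number in each.

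Ackr3 came nearest. It encodes an atypical chemokine receptor that takes up Cxcl12 without classical G-protein signalling, and lies on chromosome 1 (90203980 to 90216751). In high wells it ran from 3.04 to 26.7 CPM with a median of 11.1 CPM, and in low wells from 15.9 to 43.6 CPM with a median of 24.6 CPM. The groups overlapped. However, 10 of the 13 high wells lay below the lowest low well and 5 low wells lay above the highest high well. The means were 12.3 ± 7.0 and 27.8 ± 9.3 CPM (SD, n = 13 each), and the log2 fold change was −1.15 (95% interval −1.64 to −0.65, unadjusted p = 2.75e-05, adjusted p = 0.250 by edgeR). Ackr3 passed the threshold with 10 wells in each group (log2 fold change −1.62, edgeR adjusted p = 0.00465) and with column 4 wells in place of column 3 (−1.22, edgeR adjusted p = 0.0661). The DESeq2 adjusted p was 0.0572, in an adjustment that included Aldh1a2, the gene that chose the wells. No other alternative run had Ackr3 past the threshold. In the 13 middle wells, which the split did not use, its slope on Aldh1a2 was positive (0.60 per doubling, unadjusted p = 0.325 by edgeR). Neither of the other genes of this axis was called. The signalling receptor Cxcr4 had 12.1 ± 4.8 CPM in high and 12.3 ± 5.4 CPM in low wells (SD, n = 13 each), and the ligand Cxcl12 had 17.3 ± 11.2 and 13.2 ± 4.0 CPM (SD, n = 13 each).

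Hoxb1, a retinoic acid target and posterior second heart field marker on chromosome 11 (96365752 to 96368256), was among the 5 genes of smallest p with a higher level in high wells. It ran from 16.8 to 98.9 CPM with a median of 42.4 CPM in high wells, and from 3.55 to 44.8 CPM with a median of 21.3 CPM in low wells. The groups overlapped, with 11 of 13 high wells above the low median and 5 above the highest low well. The means were 45.1 ± 24.5 and 22.8 ± 12.4 CPM (SD, n = 13 each) and the log2 fold change was 0.96 (95% interval 0.41 to 1.51, unadjusted p = 0.000986, edgeR adjusted p = 0.941), so Hoxb1 did not pass the test. Its slope on Aldh1a2 in the 13 middle wells had the same sign (1.43 per doubling, unadjusted p = 0.00912, edgeR adjusted p = 0.998). Over all 39 wells the slope was 0.43 per doubling (edgeR adjusted p = 0.475).

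The other 4 genes of smallest p in that direction were also short of the threshold, each with an edgeR adjusted p of 0.941. Gpc3, a glypican of the cell surface that binds growth factors, had 362 ± 69 CPM in high and 280 ± 55 CPM in low wells (SD, n = 13 each), a log2 fold change of 0.36, with all 13 high wells above the low median. Lef1, a transcription factor of the Wnt pathway, had 124 ± 49 and 84.9 ± 16.7 CPM (SD, n = 13 each). Its medians lay closer, at 98.3 and 89.8 CPM, with 9 of 13 high wells above the low median. Synm, an intermediate filament gene, had 15.2 ± 10.2 and 5.93 ± 3.76 CPM (SD, n = 13 each), and Aven, an inhibitor of apoptosis, had medians of 15.1 and 7.65 CPM. All 4 slopes in the middle wells had the same sign as the fold change, and none had an unadjusted p under 0.05.

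Below Ackr3, the 4 genes of smallest p with a lower level in high wells had the same adjusted p of 0.941 by edgeR. Calca, the gene for calcitonin and the peptide CGRP, had 1.01 to 15.2 CPM in high wells (median 9.87 CPM) and 3.03 to 54.9 CPM in low wells (median 19.1 CPM), with a log2 fold change of −1.30. Prkg1, a cGMP-dependent kinase, had 7.46 ± 4.48 and 16.8 ± 5.6 CPM (SD, n = 13 each, −1.14). Aspm, a spindle protein of dividing cells, had a log2 fold change of −0.52 and Bag4, a chaperone cofactor, one of −0.63. In the middle wells the slopes of these 4 genes were positive, and that of Calca was 2.29 per doubling (unadjusted p = 0.0185).

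**Figure D3:**
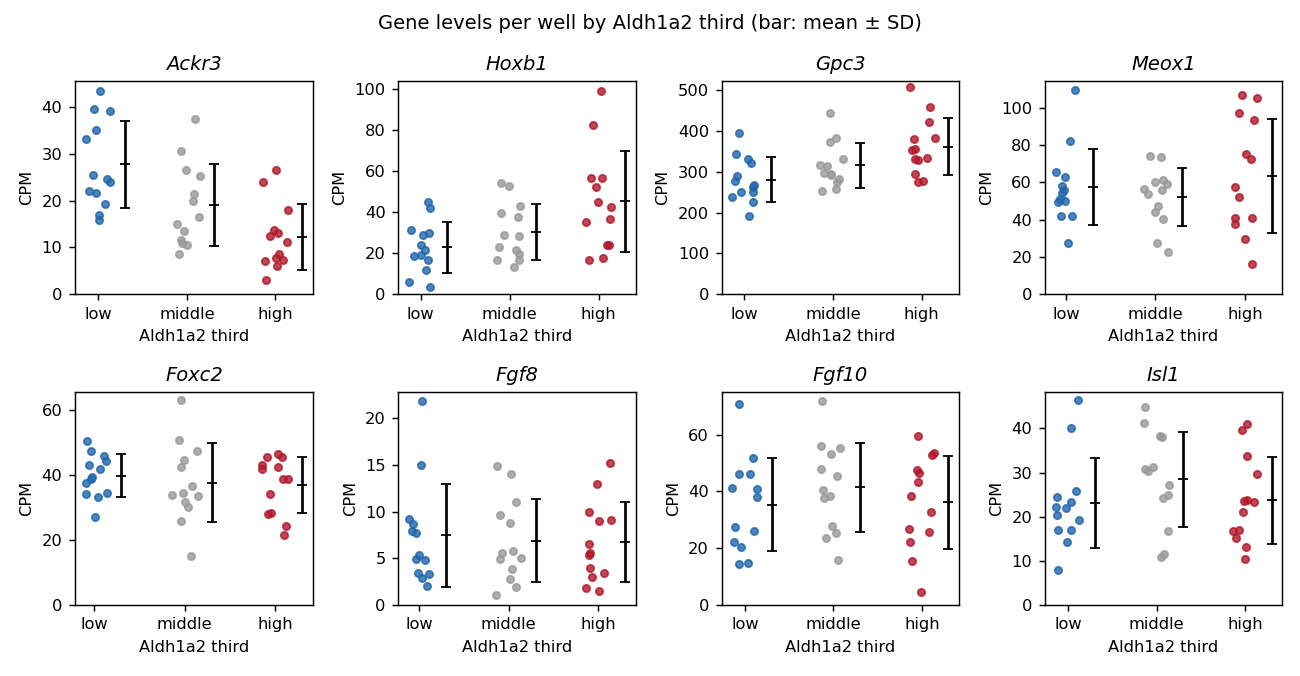
CPM per well of 8 genes in the low, middle and high wells (13 wells in each); each point is a well and the bar beside it the mean ± SD. Ackr3 is lower and Hoxb1 and Gpc3 are higher in the high wells with overlapping ranges and none past the edgeR test, while the wells of the 3 groups overlap for Meox1, Foxc2, Fgf8, Fgf10 and Isl1, with the widest range of Foxc2 in the middle wells.

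The mesodermal markers named with Aldh1a2 were not called. Meox1 ran from 16.2 to 107 CPM in high wells (median 57.7 CPM) and from 27.6 to 110 CPM in low wells (median 54.3 CPM), and its log2 fold change was 0.14 (95% interval −0.27 to 0.56). Foxc2 ran from 21.6 to 46.7 CPM in high wells (median 38.9 CPM) and from 27.2 to 50.6 CPM in low wells (median 39.6 CPM), with a log2 fold change of −0.12 (−0.41 to 0.17). Fgf8, the signal of anterior and pharyngeal mesoderm, was low throughout, with 1.52 to 15.2 CPM in high wells (median 5.56 CPM) and 2.02 to 21.8 CPM in low wells (median 5.32 CPM). It was tested in the fit with a looser filter on low counts (at least 1 read in 5 of the 26 wells), where its log2 fold change was −0.18 (−0.96 to 0.59). Tbx1 itself had a median of 2.58 CPM in high and 2.83 CPM in low wells, and its interval was the widest of these genes (log2 fold change 0.15, −1.06 to 1.37 in the looser fit). In each of the 4, high and low wells overlapped, and the intervals of Foxc2, Meox1 and Fgf8 leave out a doubling in either direction while that of Tbx1 does not.

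Second heart field genes were split into an anterior and a posterior list. Of the 16 anterior genes, 11 passed the filter and 0 were called, 7 with a positive and 4 with a negative log2 fold change, and their median was 0.03 where the median of all genes tested was 0.00. The values ran from −0.34 to 0.27. At the lower end were Irx3, an Iroquois homeobox factor (9.84 ± 4.81 CPM in high and 12.6 ± 5.9 CPM in low wells, SD, n = 13 each, log2 fold change −0.34), and Prdm1, a transcriptional repressor (25.6 ± 12.3 and 31.8 ± 14.0 CPM, SD, n = 13 each, −0.28). At the upper end was Six2, a homeobox factor of pharyngeal mesoderm (39.4 ± 10.3 and 32.5 ± 8.9 CPM, SD, n = 13 each, 0.27), and the intervals of all 3 crossed 0. Fgf10 (0.03), Isl1 (0.03), the LIM factor of cardiac progenitors, and the cofactor Eya1 (−0.03) lay close to 0. Mef2c (0.05) had an interval that crossed 0 as well. In the looser fit 15 of the 16 were tested and 0 called, and Hand2, a cardiac bHLH factor, alone had an unadjusted p under 0.05 (5 reads in 3 high wells and 44 reads in 9 low wells, edgeR adjusted p = 0.690). Hand2 met the looser filter through the low wells, where its level was higher, so the filter and its p rest on the same difference. Nkx2-5, a core cardiac factor of this list, had 0 counts in all 26 wells, which allows a level of up to 0.0729 CPM over their summed counts.

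Of the 16 posterior genes only 4 passed the filter, Hoxb1, Ptch1 and Nr2f2 among them, and 0 were called. Their median log2 fold change was 0.33, of 3 positive values and 1 negative. Ptch1, the Hedgehog receptor, had 109 ± 42 CPM in high and 93.9 ± 39.6 CPM in low wells (SD, n = 13 each, 0.20), and Nr2f2, an atrial nuclear receptor, 109 ± 30 and 116 ± 26 CPM (SD, n = 13 each, −0.10). In the looser fit, 15 of the 16 were tested and 0 called, and the values of Gata6 (0.42) and Nr2f1 (−0.30) came with intervals that crossed 0. The median of the list there was 0.42, where that of all genes in the looser fit was −0.00076. The posterior markers Osr1 and Tbx5 were near the floor, with means of 0.787 and 0.248 CPM over the 26 wells. Tbx5 was not tested in either fit.

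Genes that make, bind, sense or degrade retinoic acid were not called either. Of 18 genes, 10 passed the filter, and 2 had a positive and 8 a negative log2 fold change with 0 called and a median of −0.08. The degrading enzyme Cyp26a1 had 26.3 ± 13.9 CPM in high and 33.0 ± 17.5 CPM in low wells (SD, n = 13 each, −0.34, 95% interval −0.86 to 0.17). Rarb, a receptor that is also a direct target, had 10.3 ± 5.2 and 12.6 ± 5.9 CPM (SD, n = 13 each, −0.32, −0.97 to 0.32). Rdh10, which makes the retinaldehyde that Aldh1a2 uses, had 40.9 ± 17.0 and 42.4 ± 16.0 CPM (SD, n = 13 each, −0.07). The binding proteins Crabp1 (0.09) and Crabp2 (−0.02) were abundant and had narrower intervals (−0.13 to 0.32 and −0.35 to 0.30). In the looser fit 16 of the 18 were tested and 0 called. Cyp26b1, a second degrading enzyme, was the one member there with an unadjusted p under 0.05 (0.00403, edgeR adjusted p = 0.526). It had 27 reads in 5 high wells and 3 reads in 2 low wells, so it met the looser filter through the high wells, in the direction opposite to Cyp26a1. Among 21 retinoic acid targets, 11 passed the filter and 0 were called, with 4 positive and 7 negative values and a median of −0.10. Of these 11, Hoxb1 alone had an unadjusted p under 0.05, and Hoxa2 (−0.05), Hoxb2 (0.06), Hoxb3 (−0.29), Meis1 (0.11) and Meis2 (−0.12) had intervals that crossed 0. In the looser fit 20 of the 21 were tested and 0 called, and 2 more had an unadjusted p under 0.05, both at a higher level in high wells. Cdx1, a caudal homeobox factor, averaged 2.61 CPM in high and 0.525 CPM in low wells and was read in 6 and 5 wells (edgeR adjusted p = 0.810). Hoxb4 averaged 2.55 and 0.830 CPM and was read in 9 and 10 wells (unadjusted p = 0.0383 by edgeR). With the main filter, the counts of positive and negative values in these 4 lists were the same with TMM, TMMwsp, DESeq2 size factors and total counts.

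**Figure D4:**
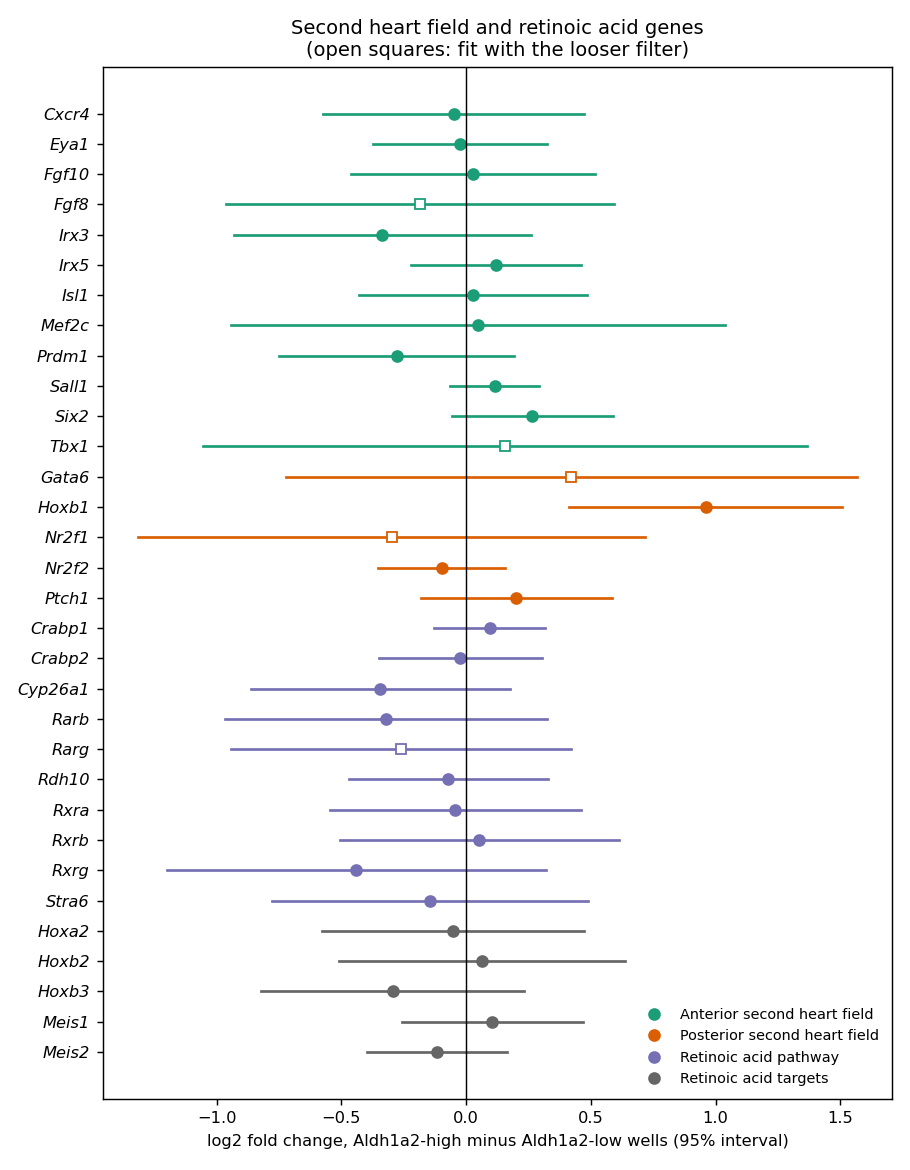
Log2 fold change (high minus low wells, horizontal axis) with its 95% interval for named genes of the anterior and posterior second heart field, retinoic acid pathway and retinoic acid target lists with a mean of at least 5 CPM, and Tbx1; open squares come from the fit with the looser filter. The interval of Hoxb1 alone leaves out 0 in this plot, before adjustment over the genes tested.

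Other Hox genes, which give mesoderm its position along the body axis, showed no shared direction. Of those with a mean of at least 2 CPM, Hoxb9 (0.50), Hoxa5 (0.41), Hoxc8 (0.03) and Hoxc13 (0.02) had positive and Hoxa7 (−0.51) and Hoxb7 (−0.48) negative log2 fold changes, and the 95% interval of each crossed 0. Hoxb9 had 10.1 ± 9.7 CPM in high and 7.08 ± 4.53 CPM in low wells (SD, n = 13 each).

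Lists for other mesoderm, signalling and cell division gave 0 calls as well. In the paraxial mesoderm list 12 of 23 genes passed the filter, with a median log2 fold change of 0.17 and 8 positive values. Its members Pcdh19, a protocadherin (27.1 CPM in high and 15.2 CPM in low wells), and Pax3, a factor of dermomyotome (26.3 and 18.9 CPM), had an unadjusted p under 0.05. Of the 24 genes of the G2/M list, 20 had a negative and 4 a positive log2 fold change (19 and 5 with DESeq2 size factors or total counts), with a median of −0.04, and 4 of them (Bub1b, Cenpf, Cdca8 and Top2a) had an unadjusted p under 0.05. The S phase list had a median of 0.01 over 24 genes and the list of Wnt targets one of 0.00 over 11. The list of FGF feedback genes had one of −0.06 over 9 and the list of Bmp targets one of −0.06 over 4. Members with an unadjusted p under 0.05 were Rrm1 (S phase, −0.20), Sp5 (0.61) and Lef1 (both Wnt targets) and Fgfr1 (FGF feedback, 0.35). Sp5 is also in the primitive streak list. The p53 target list had a median of 0.19 over 14 genes, with 1 unadjusted p under 0.05 (Pmaip1). The medians were 0.05 over 7 cardiopharyngeal genes, 0.12 over 4 genes of intermediate mesoderm and epicardium, −0.17 over 6 primitive streak genes, −0.03 over 7 early response genes and 0.07 over 11 genes of the ATF4 stress response.

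Markers of other cell types had overlapping ranges in both groups. The paper reports cardiomyocytes and endothelial cells among the progeny of RFP+ cells after further culture. At the day 5.5 sort it detected no cells positive for cardiac troponin T. Whether these markers came from cells outside the gate was not tested. In bulk wells of this kind, fewer cells of a type and less RNA per cell cannot be told apart. The 16 endothelial markers summed to 13.3 to 332 CPM in high wells and 40.4 to 341 CPM in low wells. The 16 endodermal markers summed to 156 to 990 CPM and 153 to 920 CPM, and the 17 cardiomyocyte markers to 340 to 577 CPM and 302 to 558 CPM. Most of the cardiomyocyte sum came from Tpm1, with means of 342 CPM in high and 344 CPM in low wells. Tnnt2 averaged 2.78 and 5.23 CPM. The 11 first heart field markers reached 63.9 CPM in high and 91.0 CPM in low wells, and the 14 neural markers 127 and 124 CPM. The 11 blood markers summed to 0 to 10.3 CPM in high and 1.13 to 13.9 CPM in low wells, with Hba-a1 at 0 in all 26. The 15 pluripotency genes summed to 183 to 293 CPM in high wells and 171 to 781 CPM in low wells. Lin28a had the highest mean of these genes, with 175 CPM in high and 188 CPM in low wells. Dppa5a, an RNA-binding protein of pluripotent cells, averaged 2.84 CPM in high and 36.5 CPM in low wells. It was read in 5 high wells, up to 23.8 CPM, and in 8 low wells, up to 339 CPM (G2), with medians of 0 and 0.506 CPM (looser fit, log2 fold change −3.54, unadjusted p = 0.000359, edgeR adjusted p = 0.327). Tdgf1, a Nodal co-receptor, averaged 14.8 and 30.1 CPM (log2 fold change −0.97, unadjusted p = 0.116 by edgeR). Nanog, the pluripotency factor, averaged 9.13 CPM in high and 17.6 CPM in low wells (log2 fold change −0.93, unadjusted p = 0.0337, edgeR adjusted p = 0.984). Of the genes of these 7 lists, 0 were called with either filter, and the part of such cells in the differences above was not tested. Other members with an unadjusted p under 0.05 in the looser fit were Dppa2, Hand1 and Cd34, at a lower level in high wells, and Ttn and Itga2b, at a higher level. Dppa2 had 4 reads in 2 high wells and 26 reads in 4 low wells. Hand1 had 7 reads in 2 high and 77 in 6 low wells, and Itga2b 13 in 4 and 3 in 2. Dppa2, Hand1 and Itga2b met the looser filter mostly through the group of higher level, so filter and p rest on the same difference.

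Other genes varied between RFP+ wells as strongly as Aldh1a2 and were not called between high and low wells. The 14 genes with a higher ratio of dispersion to trend over the 39 wells, picked after the values were seen, included the epithelial keratins Krt8 and Krt18, the junction genes Cldn4 and Perp, the metallothioneins Mt1 and Mt2, the Nodal and Wnt antagonist Cer1 and the lysosomal protease Ctsd. Krt18 ran from 24.2 to 652 CPM over the 39 wells and averaged 219 CPM in high and 264 CPM in low wells (log2 fold change −0.28, unadjusted p = 0.344). Cldn4 ran from 0 to 170 CPM and averaged 40.5 and 33.2 CPM (0.25, unadjusted p = 0.606). Cer1 ran from 10.4 to 236 CPM and averaged 110 and 83.4 CPM (0.43, unadjusted p = 0.158). Of these 14 genes, each had an edgeR adjusted p of 1.

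The 13 middle wells offered a check in wells that did not enter the split, over the narrower range of 50.3 to 85.6 CPM of Aldh1a2. The slope of each gene on log2(Aldh1a2 CPM + 1) was called in 0 of 9417 genes by edgeR (0%), with 407 at an unadjusted p under 0.05, and in 0 by DESeq2, with 551 at that level. Of the 441 genes with an unadjusted p under 0.05 between high and low wells that were also tested here, 239 (54.2%) had the same sign, and over all 8979 genes tested in both the share was 50.3%. The slope fitted over all 39 wells was called in 0 of 10813 genes (0%), with 505 at an unadjusted p under 0.05 and a smallest adjusted p of 0.306.

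Genes below the filter were tested in the looser fit, where 2 of 15038 genes were called (0.0133%), both higher in high wells. Both met that filter mostly through the high wells, so the filter and the call rest on the same difference. Their values are given as a description. Olig2, a neural and motor neuron factor, was read in 7 of 13 high wells and 1 of 13 low wells, with 41 reads against 1. Usp17le, a deubiquitinating enzyme of a family of near-identical copies, whose reads the counting could split, was read in 4 high wells and 1 low well. Of its 224 reads in high wells, 212 came from 1 well (A3). With DESeq2 neither was called (adjusted p = 0.486 for Olig2 and 0.999 for Usp17le).

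The same slope was fitted in the GFP+ spheroid wells, where Aldh1a2 was lower (median 16.0 CPM, range 0 to 117 CPM over the 37 wells with at least 100000 counts, against a median of 65.9 CPM in the 39 RFP+ wells). In GFP+ wells 133 of 12406 genes (1.07%) were called, 121 with a positive slope, and in RFP+ wells of the same fit 9 (0.0725%). The slope fitted over the 39 RFP+ wells alone was called in 0 of 10813 genes. The joint fit differs from it in that filter and spread were taken over GFP+ and RFP+ wells together. The intervals were narrower in GFP+ wells, with a median half-width of 0.13 against 0.20, and log2(Aldh1a2 CPM + 1) varied more there (SD 1.53 against 0.95). Of the 24 G2/M genes, 10 were called in GFP+ wells, among them Mki67 (0.20 per doubling, edgeR adjusted p = 0.00119), Tpx2 (0.16, 0.0269) and Birc5 (0.13, 0.0258). In RFP+ wells these genes had slopes of 0.00, −0.003 and 0.03, the highest of the called G2/M genes. The others had negative slopes in RFP+ wells, from −0.13 (Bub1b) to −0.016 (Aurkb), and none was called there. Hoxb1 rose with Aldh1a2 in GFP+ wells by 0.45 per doubling (edgeR adjusted p = 0.0445), where its mean was 10.6 CPM, and had 0.43 per doubling in the RFP+ wells of this fit (adjusted p = 0.889). Meis1 (0.21, adjusted p = 0.0352), Meox1 (0.48, 0.0714) and Gpc3 (0.12, 0.0709) were also called in GFP+ wells. The difference of slopes between GFP+ and RFP+ wells was called in 10 genes (0.0806%), and in none of Hoxb1, Meis1, Meox1 and Gpc3 (edgeR adjusted p of 0.868 to 1). Of the 133 genes, 67 had the same sign in RFP+ wells.

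**Figure D5:**
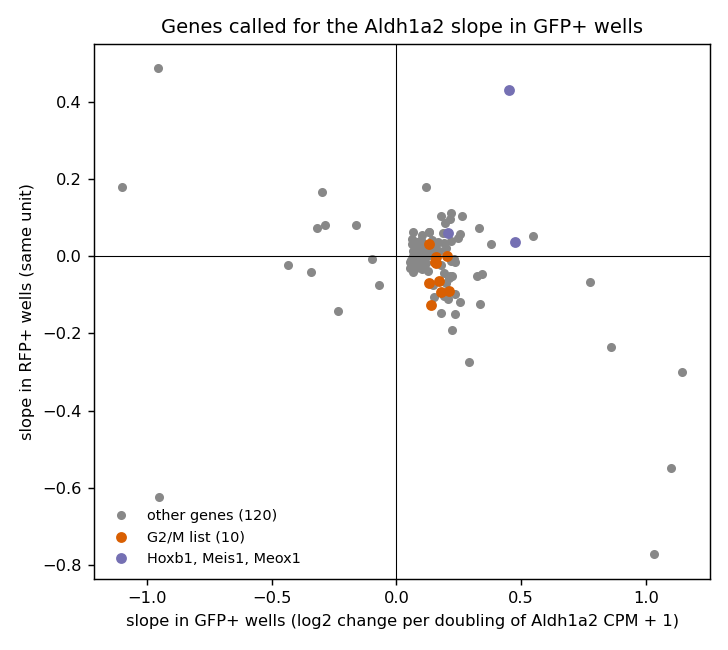
Slope on Aldh1a2 in GFP+ wells (horizontal axis) and in RFP+ wells (vertical axis), both as log2 change per doubling of Aldh1a2 CPM + 1, for the 133 genes called in GFP+ wells. The G2/M genes lie to the right of 0 in GFP+ wells and between −0.13 and 0.03 in RFP+ wells, and Hoxb1 alone of the 3 genes coloured apart lies far above 0 on both axes.

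In the 4 RFP+ libraries from embryos, Aldh1a2 had 37.2, 34.8, 116 and 65.5 CPM (F12, G11, G12 and H11), within the range of the spheroid wells. In that order Hoxb1 had 57.6, 64.2, 40.9 and 56.8 CPM, so the library with the most Aldh1a2 had the least Hoxb1. Ackr3 had 55.4, 21.2, 4.81 and 6.08 CPM, higher in the pair with less Aldh1a2 than in the pair with more. Meox1 had 32.1, 22.5, 62.6 and 27.7 CPM, and Fgf8 16.1, 13.7, 20.9 and 19.6 CPM. Foxc2 had 7.30, 21.8, 24.1 and 22.3 CPM. With 4 libraries no test of these relations was made.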

How the data were processed

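Each library holds RNA from 10 sorted cells. The authors trimmed reads with Trimmomatic 0.36, mapped them to mm10 (GRCm38) with HISAT2 2.0.4 and counted them per gene with featureCounts 1.5.2, and the deposited values are raw read counts for 24514 gene symbols. The settings for strand and shared reads are not given in the sources used here. No symbol in the table has the mitochondrial prefix, so no mitochondrial share was computed. Reads carry no molecular identifiers, so counting intervals cover counting error only.

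CPM was computed from total counts. High and low wells were compared in R 4.3.3 with edgeR 4.0.16 (TMM, filterByExpr with a minimum count of 10, minimum total of 15 and minimum proportion of 0.7, quasi-likelihood F-test), with Benjamini-Hochberg adjustment over all genes tested and calls at an adjusted p under 0.1. Aldh1a2 was kept in the library size and not tested by edgeR. In the DESeq2 fits it was tested with the other genes and removed after the adjustment. Standard errors and 95% intervals come from the information matrix of each gene's fit, multiplied by its moderated quasi-dispersion. Slopes use log2(Aldh1a2 CPM + 1). In the joint fit, GFP+ wells with at least 100000 counts were used. Well measures were compared by two-sided permutation tests with 100000 resamples (scipy 1.17.1). The fits were tested on simulated data. Alternatives covered DESeq2 1.42.0, scaling, filters, the split, the wells and covariates. Positions are from GENCODE M21.

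The wells and gene lists were chosen with earlier results of these data known. Genes were named by a rule: Aldh1a2, Fgf8, Foxc2, Meox1 and Tbx1, the called genes, the 5 of smallest p in each direction where none was called (predicted genes left out), members of the heart field and retinoic acid lists with a mean of at least 5 CPM and Hox genes with at least 2 CPM, of which some are not reported here. Some genes were chosen after their values were seen. They are Cxcl12, Osr1, Tbx5, Tdgf1, Hba-a1, Nkx2-5, Tpm1, Tnnt2, Lin28a, the genes that varied most and the G2/M genes of the GFP+ fit. Members of other lists named for an unadjusted p under 0.05, and those with such a p in the looser fit, were also chosen so.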

Additional observations from a re-analysis of the deposited data

Results flagged for a closer look

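In 10 genes the slope on Aldh1a2 differed between GFP+ and RFP+ spheroid wells by the test of the difference itself (edgeR, adjusted p under 0.1 over 12406 genes). The values below are slopes in GFP+ minus slopes in RFP+ wells, in log2 units per doubling of Aldh1a2 CPM + 1. Cdca8, a subunit of the mitotic chromosomal passenger complex, had a difference of 0.23 (adjusted p = 0.0547), from 0.17 in GFP+ wells and −0.06 in RFP+ wells, at means of 174 and 317 CPM. Clu, a secreted chaperone, had −0.61 (adjusted p = 0.0821), at means of 35.4 and 34.9 CPM. The other 8 genes had means of at most 4.45 CPM in RFP+ wells. The difference was 1.76 for Tmem154, 2.51 for Cxcl10 and 1.80 for Zfp786, and it was −3.46 for Chit1, −2.16 for Rhox6, −1.67 for Scd3, −2.29 for Chrna5 and −1.23 for Myof.

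Among the 4 RFP+ embryo libraries, 7 of the 46 named genes read there had 1 library far from the other 3. The measure was Dixon's test for a single outlying value. Its rate of about 1 chance value in 20 groups holds for normally distributed values, not for genes read in 1 library. Aspm had 115 CPM in G12 against 52.0 to 53.9 CPM, and Rarg had 17.6 CPM in G12 against 0 to 2.92 CPM. Fgf10 had 82.4 CPM in H11 against 16.4 to 24.1 CPM. Foxc2 had 7.30 CPM in F12 against 21.8 to 24.1 CPM. Calca (3.65 CPM, F12), Synm (1.46 CPM, F12) and Hoxb7 (1.37 CPM, G11) were read in 1 library each, and the test flags such a gene at any level.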

How the results depend on the processing

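The count of 0 called genes became 1 with DESeq2, with the 10 highest against the 10 lowest wells and with column 4 wells in place of column 3. In each case the gene was Ackr3, lower in high wells. The DESeq2 call rests on an adjustment that included Aldh1a2, the gene that chose the wells. With the looser filter the count became 2 (Olig2 and Usp17le), both of which met that filter mostly through the high wells. It stayed at 0 with an adjusted p under 0.05, DESeq2 size factors, TMMwsp, total counts, a mean of at least 20 CPM, a robust fit, 19 against 19 wells, the slope over 39 wells, ranking by TMM CPM, all 46 wells, and terms for plate row, plate column, genes detected or log2 total count. It was also 0 without the well of fewest counts, an alternative chosen after seeing the data. Genes with an unadjusted p under 0.05 numbered 769 over all 46 wells, which count the near copies as separate wells. Over the other edgeR fits of the same 26 wells with the main filter, they numbered 387 to 529. The count for the middle wells stayed at 0 with total counts, the looser filter and DESeq2. The 10 genes of smallest p kept their sign in all 176 alternative values. The Ackr3 adjusted p ran from 0.00465 to 0.999 and that of Hoxb1 from 0.181 to 1.

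Among the other named genes, 50 of 548 values changed sign, none of them past the threshold. With 10 against 10 wells the log2 fold change was 0.020 for Crabp2, 0.011 for Cxcr4, −0.020 for Hoxc8 and 0.0086 for Meis2. With 19 against 19 it was −0.034 for Crabp1, 0.011 for Eya1, −0.019 for Fgf10, −0.24 for Hoxc8, −0.036 for Irx5, −0.043 for Isl1, −0.011 for Meis1, 0.11 for Rarb and 0.045 for Rxra. With all 46 wells it was −0.28 for Fgf10, −0.016 for Hoxc8, −0.018 for Irx5, −0.22 for Isl1, −0.10 for Rxrb and 0.084 for Stra6. With column 4 wells it was 0.035 for Cxcr4, −0.094 for Hoxc8, 0.055 for Rxra and −0.0062 for Rxrb. With a term for genes detected it was −0.074 for Fgf10, −0.11 for Hoxb2, −0.058 for Hoxc8 and −0.015 for Mef2c, and with one for log2 total count −0.10 for Fgf10, 0.047 for Hoxa2, −0.19 for Hoxb2 and −0.056 for Hoxc8. With plate column it was 0.19 for Crabp2, −0.18 for Fgf10 and 0.035 for Hoxa2, and with plate row 0.29 for Cxcr4, 0.051 for Hoxa2, 0.11 for Rdh10, 0.23 for Rxra, −0.21 for Rxrb and 0.24 for Stra6. The slope over 39 wells was 0.023 for Cxcr4, 0.012 for Hoxb3, −0.070 for Hoxc13, −0.071 for Hoxc8, −0.0048 for Irx5, −0.041 for Isl1, −0.035 for Rxrb and 0.041 for Stra6. Without the well of fewest counts it was −0.020 for Fgf10 and −0.097 for Hoxb2. The cause of these changes was not tested. No paired analysis was possible because the high and low wells share no replicate numbers. The fits with terms for plate row and plate column compare wells by plate position instead.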
